A study of Mus musculus with 6 samples.

Results

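The Csrp1, Tnni1 and Tnnt2 locus is a window of 165 kb on mouse chromosome 1, chr1:137600000-137765000 on build mm9. Its members are the H3K27ac peaks that overlap this window in any of 3 deposited lists, 195 of 243962 peaks in all: 48 of 57101 in proliferating cells, 69 of 89717 after 36 h of differentiation and 78 of 97144 after 72 h. The window was chosen by the length under peaks of the 36 h and 72 h lists, since one of their longest peak clusters lies there, so its high peak number and length are a description of the choice and carry no test. The libraries come from C2C12 cells, an established mouse myoblast line that fuses into myotubes in culture, labelled proliferation, 36 h and 72 h of differentiation, with no genetic change or added agent in the labels. The study concerns TAp63, a p53-family transcription factor, in muscle formation. Each stage has 1 H3K27ac library, built from DNA pooled over 4 ChIP assays, and 1 input library (chromatin DNA without immunoprecipitation), and the input has no list of its own among the files used here. The spread between cultures of a stage could therefore not be measured, and no comparison between stages below has a p-value.

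H3K27ac is acetylation of histone H3 at lysine 27, placed mainly by the acetyltransferases CBP and EP300 at active promoters and enhancers, and long runs of it mark loci that are strongly used in a cell type. Troponin is the calcium switch of striated muscle: troponin C binds calcium, troponin I holds the thin filament off, and troponin T ties the complex to tropomyosin. Tnni1 encodes troponin I of slow skeletal fibres, and Tnnt2 encodes cardiac troponin T, which embryonic skeletal muscle also makes. Csrp1 encodes a LIM-domain protein of the actin cytoskeleton. In RefSeq's gene order on GRCm38.p6 all genes between Csrp1 and Tnnt2 are Phlda3, Tnni1 and Lad1, with Nav1 the nearest protein-coding gene before Csrp1 and Pkp1 the nearest after Tnnt2. No gene positions on mm9 were used here, so no peak is assigned to the promoter or body of a gene, and the muscle identity of the cells was not checked on marker genes.

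The promoters of the 3 genes are shown because all lie at this locus and because muscle genes are commonly bound there by myogenic factors. Each runs from 250 bases before to 50 bases after the first start site listed by RefSeq on GRCm38.p6, on the plus strand. These positions are on another build than the peaks and cannot be compared with them. Capitals mark the E-boxes CAGCTG and CACCTG, which bind factors of the MyoD family, and the M-CAT motif CATTCC, which binds TEAD factors, all read on both strands.
Csrp1, chr1:135728917-135729216: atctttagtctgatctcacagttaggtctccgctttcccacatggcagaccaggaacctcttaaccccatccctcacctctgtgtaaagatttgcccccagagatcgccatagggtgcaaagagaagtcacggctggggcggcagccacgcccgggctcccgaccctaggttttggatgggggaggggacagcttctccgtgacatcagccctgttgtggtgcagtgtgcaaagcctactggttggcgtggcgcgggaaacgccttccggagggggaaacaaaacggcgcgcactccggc
Tnni1, chr1:135799171-135799470: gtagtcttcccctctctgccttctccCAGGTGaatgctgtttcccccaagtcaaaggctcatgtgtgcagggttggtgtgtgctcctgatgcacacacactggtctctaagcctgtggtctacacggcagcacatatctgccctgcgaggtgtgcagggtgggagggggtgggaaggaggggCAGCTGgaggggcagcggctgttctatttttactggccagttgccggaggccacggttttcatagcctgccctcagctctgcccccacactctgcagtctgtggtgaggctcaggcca
Tnnt2, chr1:135836084-135836383: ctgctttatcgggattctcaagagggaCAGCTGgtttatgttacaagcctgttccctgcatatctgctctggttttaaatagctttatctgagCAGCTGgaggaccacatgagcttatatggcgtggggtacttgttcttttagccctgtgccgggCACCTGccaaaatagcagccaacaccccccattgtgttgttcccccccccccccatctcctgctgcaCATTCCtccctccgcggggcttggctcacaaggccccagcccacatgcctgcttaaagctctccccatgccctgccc
The Tnnt2 promoter holds 2 CAGCTG, 1 CACCTG and 1 CATTCC. The Tnni1 promoter holds 1 CAGCTG and 1 CACCTG, the second read on the opposite strand. None of these letters occurs in the Csrp1 window. Among all 32851 promoters of the table, 16.3% hold CAGCTG, 20.2% CACCTG and 14.7% CATTCC. The CArG box of SRF and the MEF2 site, held by 1.63% and 1.86% of promoters, are in none of these 3. A match is a description of letters and not a bound site.

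Differentiating cells had more of the locus under H3K27ac peaks than proliferating myoblasts had. These peaks covered 42.1 kb of the window in proliferating cells, 72.1 kb at 36 h and 77.0 kb at 72 h, which is 25.5%, 43.7% and 46.6% of its length. The 36 h list had 1.71 times and the 72 h list 1.83 times the length of proliferation. These ratios were no higher than over the whole lists, where they were 1.79 and 2.03, or over chromosome 1, where they were 1.80 and 2.05. Peak number differed less than length, at 1.44 times proliferation at 36 h and 1.62 times at 72 h, and its direction depended on the length of the lists: with each list reduced to its 57101 strongest peaks the locus held 48 peaks in proliferating cells, 47 at 36 h and 42 at 72 h. The length under peaks in these reduced lists was 42.1, 66.9 and 67.4 kb. The locus was dense at every stage. Among 9587 tiles of the same size with a peak in any list, it was at rank 4 by length under peaks in proliferating cells, at rank 2 after 36 h and at rank 1 after 72 h, where the median tile had 3.60 kb. Among the 725 tiles with at least 10 kb in proliferating cells, 73.1% had a lower ratio of 72 h over proliferation, and their median ratio was 1.43. These tiles were picked by length in proliferating cells and the window by length in the later lists, so this share carries no test.

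To compare signal between libraries, the number of ChIP fragments at each summit was recovered from the deposited fold and p, together with the local background that the peak caller used. Divided by the depth of its library relative to proliferation, this number is called depth-scaled below, and the fold itself is used only within 1 list. The background is in the peak caller's units. In these a ChIP fragment counts as 0.673 in proliferating cells, 0.698 at 36 h and 0.657 at 72 h. The background was divided by this factor before any subtraction.

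**Figure D1:**
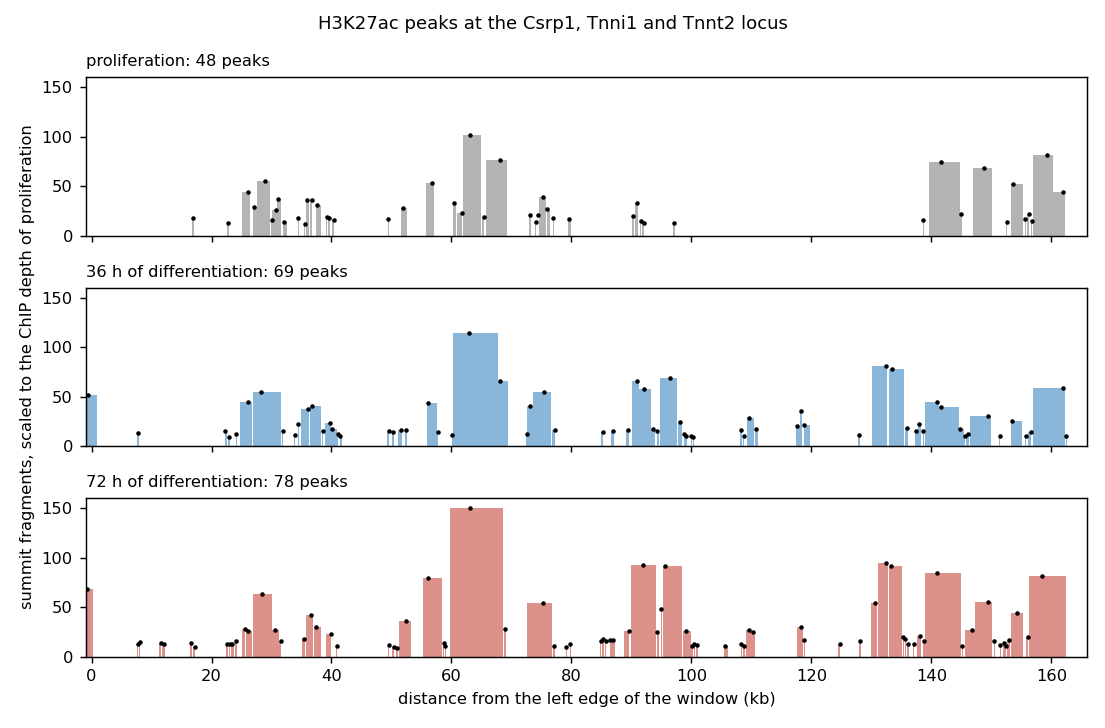
H3K27ac peaks along the locus at 3 stages, with distance from the left edge of the window in kb on the horizontal axis and summit fragments divided by the relative ChIP depth on the vertical axis. Each bar spans a peak and each dot marks its summit; the stretch between 97.2 and 138.6 kb is empty in proliferating cells and holds peaks at both later stages.

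Peaks of this locus were long on average. The mean width was 877 bp in proliferating cells, 1062 bp at 36 h and 1007 bp at 72 h, compared with 549, 624 and 656 bp over the whole lists. Peaks over 2 kb made up 16.7%, 17.4% and 12.8% of the peaks of the window, and 2.61%, 4.53% and 5.25% of the whole lists. The 3 widest peaks had 5191, 3557 and 3286 bp in proliferating cells, 7419, 5427 and 4681 bp at 36 h, and 8838, 6166 and 5962 bp at 72 h. Median widths of 387, 511 and 380 bp show that the long peaks stood among many short ones. Over the whole lists the medians were 363, 376 and 393 bp, so at 72 h the median of the locus was the smaller. The median fold, the authors' enrichment at the summit, lay above 42.7%, 59.3% and 45.8% of the whole list of its own stage in proliferating cells, at 36 h and at 72 h, so the typical peak of the locus was of ordinary strength. The 5 highest folds of the locus were 19.9, 16.9, 14.6, 13.9 and 13.3 in proliferating cells, 42.6, 29.2, 24.8, 21.8 and 21.4 at 36 h, and 50.2, 31.8, 29.0, 28.7 and 22.5 at 72 h.

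Nearly all of the acetylated length of proliferating cells at the locus remained under peaks later. Of the base pairs under proliferation peaks, 93.0% were also under 36 h peaks and 92.6% under 72 h peaks, compared with 75.7% and 81.0% over the genome. A 36 h peak overlapped 44 of the 48 proliferation peaks (91.7%, with a 95% Wilson interval of 80.4 to 96.7%), beside 76.3% of the whole list. A 72 h peak overlapped the same number, beside 82.0% of the whole list. In the other direction, 30 of 69 peaks at 36 h (43.5%, 32.4 to 55.2%) and 33 of 78 at 72 h (42.3%, 32.0 to 53.4%) overlapped a proliferation peak, against 42.2% and 40.2% of the whole lists. The later stages shared more with each other: 56 of 78 peaks at 72 h (71.8%, 61.0 to 80.6%) overlapped a 36 h peak, against 66.5% of the whole list, and 62 of 69 peaks at 36 h (89.9%, 80.5 to 95%) overlapped a 72 h peak, against 77.0%. The whole-list share lay below the interval for proliferation peaks at 36 h and for 36 h peaks at 72 h, and within the interval for the other 4 shares. These intervals cover counting error only, and neighbouring peaks are not independent. The window was also chosen for its length under the later peaks, a choice that favours overlap with them. The shares set beside the whole lists are therefore a description and carry no test.

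Merging overlapping peaks of the 3 lists gave 67 regions at the locus. Where fragments of a region are compared below, the strongest summit of each list is used. These summits can lie at different positions of the region, so a ratio does not describe a single site. Of these, 19 had a peak at all 3 stages (28.4%, 19.0 to 40.1%), beside 25.6% of 112926 regions over the genome. Gained regions, called at both later stages and not before, numbered 20 (29.9%, 20.2 to 41.7%), beside 22.3%. A single region was lost, with a peak in proliferating cells only (1.49%, 0.264 to 7.98%), beside 6.70%. Regions called at 72 h only numbered 17 (25.4%, 16.5 to 36.9%), beside 23.9%, and those called at 36 h only numbered 6 (8.96%, 4.17 to 18.2%), beside 15.9%. A further 3 had peaks at proliferation and 72 h, beside 3.95%, and 1 at proliferation and 36 h, beside 1.70%. The genome's share lay within the interval for each of the 5 classes with an interval given here. These intervals cover counting error only, and neighbouring regions are not independent. The window was chosen by its later peaks, which bears on the gained and lost classes. The class shares are therefore a description and carry no test.

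**Figure D2:**
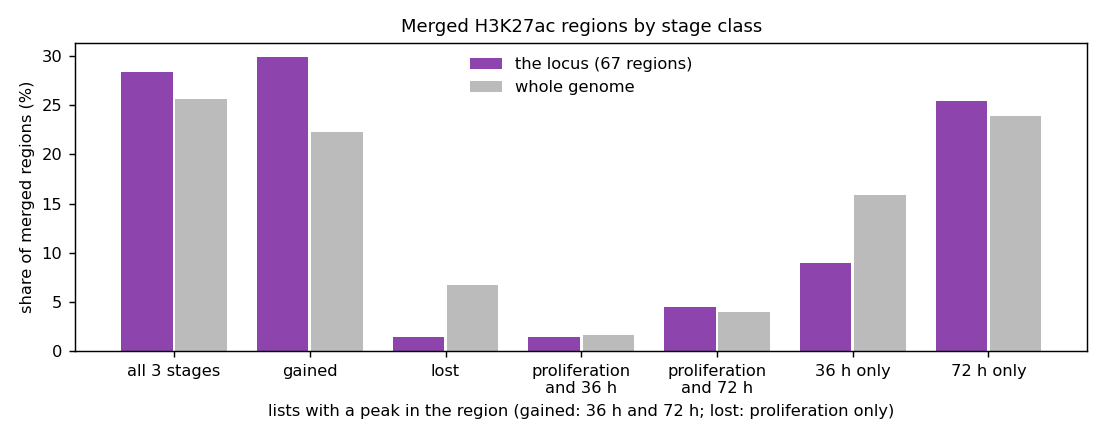
Share of merged H3K27ac regions in each stage class, in percent, for the 67 regions of the locus and for the whole genome. Gained regions made up 29.9% at the locus and 22.3% over the genome, and lost regions 1.49% and 6.70%.

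With peaks merged at an overlap of at least 1 bp, the added length came in similar parts from shared regions and from gained regions. This split depends on the merging: across gaps of up to 1 kb only 5 regions were gained, and the split was not computed there. At the 19 regions of all 3 stages, 40.6 kb lay under peaks in proliferating cells, 56.3 kb at 36 h and 56.6 kb at 72 h within the window. The 16.1 kb that 72 h had more here was 46.1% of its added length over proliferation. Of it, 3245 bp lay in the region from 137694835, which is shared only through 1 proliferation peak of 198 bp. The peaks of these regions were fewer and longer at the later stages, with 45 peaks in proliferating cells, 2 of them just outside the window, 38 at 36 h and 31 at 72 h. At 72 h, 17 of the 19 were longer under peaks than in proliferating cells. Gained regions held 14.1 kb at 36 h and 14.3 kb at 72 h, or 41.0% of the length added by 72 h. Regions of 72 h only gave 4.55 kb and were short, with a median width of 233 bp, the same as over the genome.

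Along the window the added length was unevenly placed. In bins of 5 kb, 27 of 33 bins had more under peaks at 36 h than in proliferating cells and 4 had less, and 31 had more at 72 h and 2 had less. Between the later stages 19 bins had more at 72 h than at 36 h and 14 had less, and in bins of 10 kb the majority turned, with 8 that had more and 9 that had less. Proliferation had no peak in 12 bins, 36 h in 3 and 72 h in none. In the first 55 kb of the window the length was 10.9 kb in proliferating cells, 16.6 kb at 36 h and 16.0 kb at 72 h. From 55 to 110 kb it was 14.2, 26.7 and 31.8 kb, and beyond 110 kb 16.9, 28.8 and 29.2 kb.

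**Figure D3:**
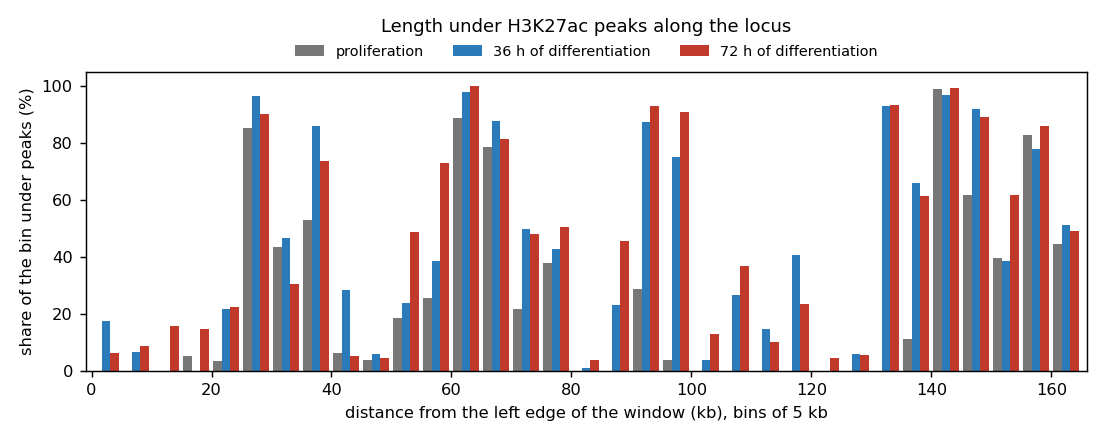
Share of each 5 kb bin under H3K27ac peaks, in percent, by distance from the left edge of the window in kb, for proliferation, 36 h and 72 h of differentiation. The bin from 130 to 135 kb has no peak in proliferating cells and is covered at 92.8% at 36 h and 93.2% at 72 h.

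The longest stretch without a proliferation peak spanned 41.4 kb, from 137697185 to 137738558. At 36 h, 12.9 kb of it lay under peaks and at 72 h 13.6 kb, in 12 gained regions, 5 regions of 72 h only and 1 of 36 h only, besides 2 regions that reach across its edges. Its strongest part was a pair of neighbouring gained regions, from 137730002 to 137732702 and from 137732934 to 137735450. Summit fragments of the first numbered 97 at 36 h and 104 at 72 h, with folds of 24.8 and 31.8 within their own lists. The second had 93 and 101 fragments, with folds of 29.2 and 29.0. These folds lay above 98.1% to 99.5% of the peaks of the 36 h and 72 h lists. The nearest proliferation peaks were 5857 and 3109 bp away.

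The signal of this pair was far above what a call in proliferating cells needed. With the depth of the proliferation library, its median signal at regions of all 3 stages, and a local background as high as the 95% quantile of its peaks, 18 fragments sufficed for a call. The 36 h peaks of the pair would have given 81.2 and 77.9 fragments there, and the strongest 72 h peaks 83.5 and 81.1. In all, 20 of the 69 peaks of the locus at 36 h would be called in the proliferation library with a probability of 99% or more, and 3 of them (15.0%, 5.24 to 36.0%) had no proliferation peak within 1 kb, beside 18.5% of the detectable peaks of the whole list. At 72 h these were 4 of 17 (23.5%, 9.56 to 47.3%), beside 20.7%. Both shares are near those of the whole lists, and like the overlap shares above they carry no test. Besides the pair, the 36 h peak from 137718078 to 137718474 and the 72 h peak from 137694839 to 137695151 were of this kind. No proliferation peak of the locus detectable at 36 h (24 peaks) or at 72 h (27 peaks) lacked a later peak within 1 kb, beside 5.07% and 3.10% of the detectable peaks of the whole list that did. The Wilson intervals of these counts of 0 reach 13.8% and 12.5%. Between the later stages likewise, none of 29 detectable 72 h peaks was missing at 36 h, beside 3.01%, and none of 28 detectable 36 h peaks at 72 h, beside 1.68%, with intervals that reach 11.7% and 12.1%.

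The remaining gained regions were weaker. The next by fold at 72 h lay from 137717385 to 137718574, with 42 fragments at 36 h and 33 at 72 h and a highest 72 h fold of 10.4, 19985 bp from the closest proliferation peak. The region from 137698645 to 137699839 had 15 fragments at 36 h and 29 at 72 h. That from 137688750 to 137689634 had 20 and 28. Over all 20 gained regions the summit fragments at 72 h ranged from 11 to 104, with a median of 19.5. Their depth-scaled ratio of 72 h over 36 h had a median of 1.05, with 12 higher and 8 lower. Of the 20, 5 lay within 1 kb of a proliferation peak and 8 more than 5 kb away.

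The longest region of the locus, from 137659813 to 137669450, held the peak of highest fold of the locus at all 3 stages. It is 9638 bp long and was called as 5 peaks in proliferating cells, 3 at 36 h and 2 at 72 h. Its highest fold was 19.9 in proliferating cells, rank 399 of that list, 42.6 at 36 h, rank 35, and 50.2 at 72 h, rank 1 of all 97144 peaks. Summit fragments were 102 in proliferating cells, 136 at 36 h and 165 at 72 h, and scaled for depth they were 1.12 times (95% interval 0.856 to 1.46) those of proliferation at 36 h and 1.47 times (1.14 to 1.90) at 72 h. The local background at these summits, in the caller's units, was 4.0 in proliferating cells, 1.25 at 36 h and 1.18 at 72 h. In proliferation the highest fold was at another peak of the region, with 76 fragments and a background of 1.62 in the caller's units. A fold is relative to the background of its own library, and ranks in different lists do not measure a change.

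Of the other 4 longest regions, 2 lie left of the middle of the window, and their intervals over proliferation included 1. The other 2, from 137738986 and from 137755528, are taken up further below. Intervals of the region from 137755528 also included 1 (0.517 to 1.01 at 36 h and 0.732 to 1.37 at 72 h). The region from 137626954 to 137631660 had 55 fragments in proliferating cells, 65 at 36 h and 70 at 72 h, with depth-scaled ratios of 0.989 (0.68 to 1.44) at 36 h and 1.16 (0.803 to 1.68) at 72 h over proliferation. It was called as 5 peaks in proliferating cells, 1 at 36 h and 3 at 72 h. The region from 137672598 to 137677328 had 39, 66 and 60 fragments, with ratios of 1.42 (0.939 to 2.16) and 1.4 (0.921 to 2.15). Its peaks covered 2610 bp in proliferating cells, 4428 bp at 36 h and 4608 bp at 72 h.

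Summit signal at regions of all 3 stages, scaled for ChIP depth, had median ratios over proliferation near those of the genome. Between the later stages the median was higher at these regions, but not over all locus regions with a peak in both lists. The median ratio over the 19 regions was 1.01 for 36 h over proliferation and 1.16 for 72 h over proliferation, compared with 0.999 and 1.13 over all 28908 regions of all 3 stages. For 72 h over 36 h it was 1.32, compared with 1.15 over the genome, and 68.4% of the 19 ratios lay above 1, beside 69.9%. Over the 39 regions of the locus with a peak in both of these lists the median was 1.15. Over such regions of the genome it was also 1.15. Of 20 regions with a peak in both lists, 2 were at least 2-fold higher at 36 h (background 4.90%) and 2 at least 2-fold lower (background 7.90%). At 72 h, 3 of 22 were at least 2-fold higher than in proliferating cells (background 8.42%) and none was 2-fold lower (background 3.87%). For 72 h over 36 h, 2 of 39 were 2-fold higher (background 6.20%) and none 2-fold lower (background 0.921%). Intervals of single ratios cover counting error only. For 36 h over proliferation, 3 of the 19 lay above 1 (background 11.0%) and 3 below (background 12.4%). For 72 h over proliferation, 5 lay above 1 (background 19.6%) and none below (background 6.12%). For 72 h over 36 h, 8 lay above 1 (background 13.8%) and none below (background 1.51%). An interval is narrower where a region has more fragments, and the regions of the locus and of the genome were not matched for this.

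The 2 regions with the largest ratios of 72 h over proliferation lie next to each other, between 90.0 and 98.4 kb from the left edge. The region from 137694835 to 137698418 had 13 summit fragments in proliferating cells, 82 at 36 h and 100 at 72 h. Its proliferation peak was a short one of 198 bp, whereas 3297 and 3443 bp lay under peaks later. The depth-scaled ratio was 5.28 (2.92 to 10.3) at 36 h and 7.01 (3.92 to 13.6) at 72 h over proliferation. It compares summits at different positions: 137697093 in proliferating cells, 137696401 at 36 h and 137695540 at 72 h. Its neighbour from 137690003 to 137694115 had 33, 79 and 102 fragments, with ratios of 2.0 (1.32 to 3.10) and 2.82 (1.88 to 4.30). The peaks of this neighbour numbered 4 in proliferating cells, 3 at 36 h and 1 at 72 h, and covered 1427, 3784 and 4113 bp.

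At the left edge, a region from 137598442 to 137600868 had 26, 62 and 75 fragments, with ratios of 1.99 (1.24 to 3.29) and 2.63 (1.66 to 4.28). Its proliferation peaks and all of its summits lie outside the window. The region from 137655327 to 137658358 had 53, 52 and 87 fragments, a ratio of 1.5 (1.05 to 2.15) for 72 h over proliferation. Its local background at 72 h was 7.0 in the caller's units, the highest of that list within the window. It was 1.76 in proliferating cells and 3.0 at 36 h. The part of this background in the result was not tested. At the low end stood the region from 137624771 to 137626801, with 44, 53 and 31 fragments and a ratio of 0.642 (0.392 to 1.04) at 72 h over proliferation. The other 4 of the 5 lowest ratios of 72 h over proliferation lay between 0.683 and 0.759, all at summits of at most 18 fragments in proliferating cells.

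Beyond 110 kb from the left edge, the strongest summit of 4 of the 5 shared regions was lower at 36 h than at either other stage. This held with or without subtraction of the local background. Without it, all 5 had a depth-scaled ratio below 1 for 36 h over proliferation, with a median of 0.599, and all 5 had a ratio above 1 for 72 h over 36 h, with a median of 1.74. The region from 137745502 to 137750060 had 68 fragments in proliferating cells, 37 at 36 h and 61 at 72 h, a ratio of 0.455 (0.296 to 0.689) for 36 h over proliferation and 1.80 (1.17 to 2.78) for 72 h over 36 h. The region from 137738986 to 137745351 had 74, 53 and 93 fragments, with 0.599 (0.413 to 0.864) and 1.91 (1.35 to 2.73). That from 137753219 to 137755286 had 52, 30 and 48 fragments, with 0.483 (0.297 to 0.771) and 1.74 (1.08 to 2.85). The long region that ends the window, from 137755528 to 137762646, had 81, 70 and 89 fragments, and its ratio for 36 h over proliferation was 0.723 (0.517 to 1.01). These strongest summits lay apart, at 137759334 in proliferating cells, 137761938 at 36 h and 137758423 at 72 h. Close to the 36 h summit, at 137761930, a weaker proliferation peak had 44 fragments, fewer than the 58.6 depth-scaled fragments of 36 h. At that position 36 h was therefore not the lower. The fifth, the short region from 137738534 to 137738858, had nearly equal counts of 16, 18 and 17, and its ratio of 0.941 for 36 h over proliferation was 1.03 with the background subtracted.

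At 3 of these 5 regions the interval for 36 h over proliferation lay below 1. The length under their peaks differed in either direction. In the region from 137738986, 6212 bp lay under peaks at 36 h, against 5413 bp in proliferating cells, and in that from 137745502, 4242 bp against 3087 bp. The region from 137753219 was shorter, with 1818 bp at 36 h against 2039 bp in proliferating cells. The local background at the summit of the region from 137745502, in the caller's units, was 2.20 in proliferating cells, 3.0 at 36 h and 1.22 at 72 h. In the region from 137753219 it was 4.0, 1.25 and 1.32. It was 2.0, 2.35 and 2.0 in the region from 137738986, 2.0, 1.4 and 1.16 in that from 137738534, and 4.0, 2.0 and 1.76 in that from 137755528. Its part in the lower summits was not tested. Between 55 and 110 kb, by contrast, 4 of 5 shared regions had a ratio above 1 at 36 h over proliferation. Over the whole locus, 8 of 19 shared regions (42.1%) had a lower strongest summit at 36 h than at both other stages, beside 39.3% of such regions over the genome. Of the 8, those from 137626954 and from 137738534 were not lower than proliferation once the background was subtracted. These parts of the window were chosen after their values had been seen.

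**Figure D4:**
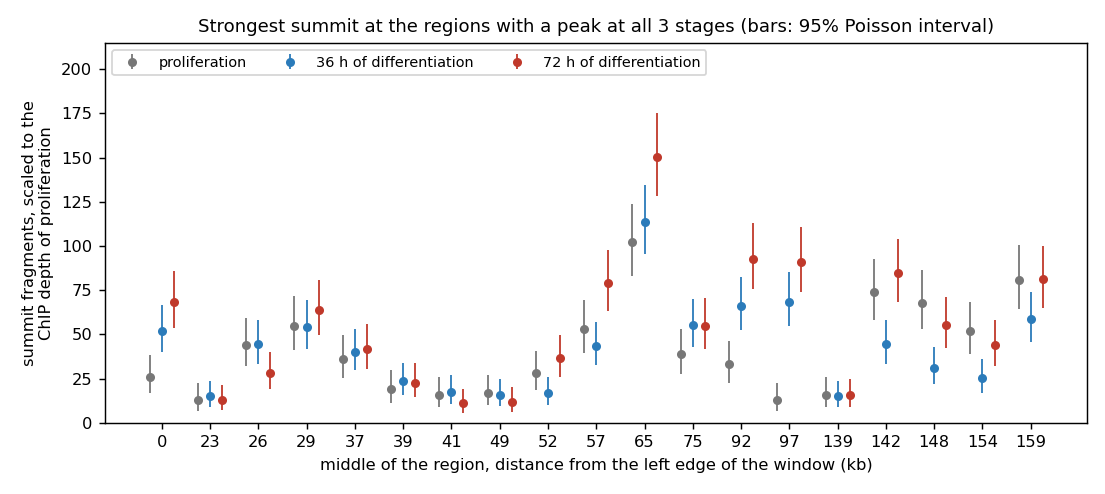
Summit fragments of the strongest peak, divided by the relative ChIP depth, at the 19 regions of the locus with a peak at all 3 stages, ordered by the distance of their middle from the left edge of the window in kb. Bars are 95% Poisson intervals (counting error only); the regions at 92 and 97 kb are lowest in proliferating cells, and those from 142 to 159 kb are lowest at 36 h.

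Regions called at a single stage were weak. The lost region, from 137631969 to 137632529, had 14 fragments and a fold of 4.66 in proliferating cells, and the nearest later peaks were 27 bp (36 h) and 327 bp (72 h) away. Among regions of 36 h only, the highest folds were 6.95 (21 fragments, from 137710669 to 137711012), 6.02 (18 fragments) and 4.78 (14 fragments). Among regions of 72 h only they were 6.19 (19 fragments, from 137686343 to 137686537), 6.15 (18 fragments) and 5.52 (16 fragments). Such summits are close to the number of fragments that a call needed, so a missing call in another list is not detectable as a difference at this depth.

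As a cluster stitched across gaps of up to 12.5 kb, the locus was joined at 72 h into 1 run that starts before the window, at 137513644, and ends in it at 137762444. It was in 2 pieces at 36 h and 2 in proliferating cells. The left 36 h piece starts at 137409633, farther left than the 72 h run. The 36 h pieces are parted by a gap of 14358 bp between 137607840 and 137622199. Peaks at 72 h within this gap had 11 to 16 summit fragments, close to the number a call needed. The joining at 72 h is therefore not detectable as a difference from 36 h at this depth. Over the whole span of this 72 h cluster, 65.8 kb lay under peaks in proliferating cells, 114 kb at 36 h and 124 kb at 72 h, so 72 h had 1.88 times the length of proliferation. The next clusters of the 72 h list had ratios of 1.48 (chromosome 15), 1.64 (chromosome 11), 2.17 (chromosome 4) and 2.07 (chromosome 14). With gaps of up to 5 kb the window held 5 pieces in proliferating cells, 8 at 36 h and 6 at 72 h, of which the one with most length under peaks, from 137649419 to 137710507, had 34.9 kb at 72 h. In proliferation the piece with most length under peaks had 16.9 kb, from 137738559 to 137762318, while the piece from 137649383 to 137679850 had the longer span, 30.5 kb against 23.8 kb.

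Depth and background differed between the libraries. Relative to proliferation the recovered ChIP depth was 1.20 at 36 h and 1.1 at 72 h. The median local background at the peaks of the locus was 1.98 times the genome background of its library in proliferating cells, 1.0 times at 36 h and 1.13 times at 72 h, compared with 1.93, 1.06 and 1.15 over the whole lists. A higher background raises the number of fragments a call needs. When depth, this median signal at shared regions and background were all set to those of the proliferation library, a choice made after seeing the data, 42.1 kb in proliferating cells, 69.4 kb at 36 h and 69.1 kb at 72 h lay under peaks of the locus.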

How the data were processed

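H3K27ac ChIP-seq of C2C12 cells was represented by 1 library and 1 deposited peak list for each of 3 stages. Peaks were called per library, and the submitters' processing notes name BWA, MACS2, deepTools and the build mm9, without versions, settings or the control used. Per the narrowPeak column order, the deposited rows give a fold (a ratio over background at the summit), a −log10 p and −log10 q, a summit offset, and a score that was not used. The smallest deposited −log10 q was 1.32, 1.32 and 1.30 for proliferation, 36 h and 72 h.

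Read totals are not given. Fold taken as (pileup + 1) / (background + 1) and p as a Poisson tail were solved for whole fragments and background, and for 100% of peaks the deposited −log10 p came back within a relative error of 0.001. The genome background was 1.01, 1.25 and 1.08 in the caller's units, and the scale factors of a ChIP fragment were 0.673, 0.698 and 0.657. The procedure was tested on simulated data. Relative depths hold only if 1 genome size was set for all runs. Fragment ratios used the peak with the most fragments in each region and list, so the summits compared can lie at different positions. They had exact conditional binomial intervals, and shares had Wilson intervals, all at 95% and for counting error only. Peaks were merged at an overlap of at least 1 bp. A fold of 2 was used to call a fragment ratio.

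The window, its members and all rules were chosen with earlier results of these data known. Named peaks were the 5 of highest fold and the 3 widest of each list, and named regions the 5 longest, the gained regions of highest 72 h fold, all lost regions, the 3 strongest of each single stage, and those with the largest and smallest ratios of 72 h over proliferation. Alternatives changed the thresholds, list length, depth, merging, overlap and assignment to the window. Python 3.11.15, numpy 2.4.6, pandas 2.3.3 and scipy 1.17.1 were used. Promoter sequences are RefSeq's on GRCm38.p6, and all 3 genes matched by symbol.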

Additional observations from a re-analysis of the deposited data

How the results depend on the processing

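The length under peaks at the locus stayed within 1.5 times its reported value at each stage under all 6 alternatives that give it, and 36 h and 72 h had 1.59 to 1.94 and 1.6 to 1.93 times the length of proliferation. The order of 36 h and 72 h by length turned at a −log10 q of at least 5, at a fold of at least 5 and with depth, signal and background made equal. Peak numbers moved more: 27 in proliferation and 43 at 72 h at a −log10 q of at least 5, 25 and 43 at a fold of at least 5, and 42 at 72 h with lists equal in number. Gained regions numbered 13 at a −log10 q of at least 5, 9 with lists equal in number and 5 when merged across gaps of up to 1 kb, where regions of all 3 stages numbered 8. Lost regions numbered 0 at a −log10 q of at least 5, at a fold of at least 5 and when merged across 1 kb, 6 with lists equal in number, 4 with an overlap of at least 50% of the shorter peak and 3 with depth, signal and background made equal. A stricter list or a wider merge holds fewer peaks or regions by construction; the cause of the other shifts was not tested. Of 98 values under alternatives, 66 stayed within these bounds. Subtracting the local background kept the side of 1 of all 3 median fragment ratios of shared regions and turned 4 of 81 single ratios: 0.989 became 1.02 for the region from 137626954 and 0.941 became 1.03 for that from 137738534 (36 h over proliferation), 0.968 became 1.06 for the second (72 h over proliferation), and 1.09 became 0.967 for that from 137751286 (72 h over 36 h). In bins of 10 kb, 47.1% of bins had more at 72 h than at 36 h, against 57.6% in bins of 5 kb. No paired analysis was possible because each stage has 1 library and the labels carry no shared replicate numbers. At this depth, regions with summits near the number of fragments a call needs cannot be told present or absent.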

Other observations

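RefSeq lists a second start site for each of the 3 genes on GRCm38.p6. The 300 bases at the second Tnnt2 start hold 1 CACCTG and neither CAGCTG nor CATTCC. Those at the second Tnni1 start, which overlap the first, hold the same CAGCTG and no CACCTG. The second Csrp1 window holds 1 CACCTG. The motif counts given for these promoters therefore depend on which start is taken.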
